A study of Triticum polonicum with 8 samples.

Results

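The 100 most abundant transcripts of dwarf Polish wheat roots that carry an A or B subgenome code are described here. They are the 100 genes with the highest mean CPM, that is, counts scaled to a common library total, over 8 libraries, taken from 74304 genes with an A or B code among 124856 genes in all. They were chosen by that level alone, so the levels are a description and carry no test. The libraries come from roots of dwarf Polish wheat (Triticum polonicum), a tetraploid wheat, sampled at 4 weeks of age after 1 week of treatment. Treatments cross 2 Ca/K supplies with Cd and Zn. N2_Cd_Zn, N2_Zn, N2_Cd and N2 grew at the raised supply, with calcium nitrate at 8 mM and potassium nitrate at 10 mM. N0_Cd_Zn, N0_Zn, N0_Cd and N0 grew at the basal supply, with these salts at 4 mM and 5 mM. Cd stands for 80 µM CdCl2 and Zn for 500 µM Zn, and the basal nutrient solution of the control held 5 µM Zn, per the series' design. As both added salts are nitrates, Ca, K and nitrate rose together. The labels state 3 biological replicates per treatment, but the tables hold a single column for each, and a difference between 2 columns is therefore without a check against replicates. Fewer cells of a type and less RNA per cell cannot be told apart in whole roots.

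Cd is a toxic metal without a known need in plants, and it enters roots largely through carriers of Zn, Fe, Mn and Ca. Zn is an essential micronutrient that becomes toxic in excess, and Ca and K are macronutrients. In plant roots the genes with most mRNA commonly serve protein synthesis, the cytoskeleton, primary metabolism, cell walls and small metal-binding proteins. Which members belong to these classes is not known here, because neither names nor functions accompany the identifiers in the files. Tetraploid wheat holds an A and a B subgenome, so many genes have a counterpart (a homoeolog) on the chromosome of the same number in the other one. The identifiers name gene models of the bread wheat Chinese Spring by chromosome arm, scaffold and serial number. A member is given in full once and by its last part, such as AA1283030, thereafter.

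Library totals ran from 20000875 counts (N2_Cd_Zn) to 25241789 (N0_Zn), and every member was read at least 323 times in each library. Levels per library are CPM scaled by TMM, a normalization that sets the bulk of genes equal between libraries. TMM shifted the values of N0_Zn by 0.21 and those of N2 by -0.19 on the log2 scale relative to plain CPM, and moved the other libraries by less than 0.1. Leaving out N0_Cd_Zn changed several counts below, which are therefore given with and without that library. Reads of near-identical copies cannot be told apart from the files, which makes the level of any one gene less certain.

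The 100 members held between 7.13% of all counts in N2 (95% Wilson interval 7.11% to 7.14%) and 10.9% in N0_Zn (10.8% to 10.9%). In the raised supply they held 8.42% in N2_Cd_Zn, 7.49% in N2_Zn and 7.42% in N2_Cd. In the basal supply they held 8.24% in N0_Cd_Zn, 8.58% in N0_Cd and 9.70% in N0. The share at raised supply was thus lower than in the basal library with the same metals, except under both metals. The 10 leading members alone held 1.80% (N2_Zn) to 2.07% (N2_Cd_Zn) at raised supply, against 2.45% (N0_Cd_Zn) to 3.23% (N0_Zn) at basal supply. Intervals cover counting error only.

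The gene with the highest mean, TRIAE_CS42_5AS_TGACv1_395418_AA1283030 on arm 5AS, had 4963, 3813, 2950.4 and 3253 TMM-scaled CPM in N2_Cd_Zn, N2_Zn, N2_Cd and N2, against 3683, 9904, 7492 and 7302 in N0_Cd_Zn, N0_Zn, N0_Cd and N0. N0_Zn, N0_Cd and N0 stood above the other 5 libraries, so the supplies overlap through N0_Cd_Zn alone. Next came TRIAE_CS42_5BS_TGACv1_423593_AA1380280 on 5BS, with 3286, 3849.7, 2420.3 and 3411 in the N2 libraries in the same order, against 3352, 5259, 3189.5 and 4512 in the N0 libraries. This second gene varied less, by 2.17-fold between its highest and lowest library, against 3.36-fold for the first.

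Ranks 3 and 4, TRIAE_CS42_5BL_TGACv1_404933_AA1315500 on 5BL and TRIAE_CS42_5AL_TGACv1_374650_AA1205560 on 5AL, were highest in N2_Cd. AA1315500 had 2950.0, 2683, 4041 and 2384 TMM-scaled CPM in N2_Cd_Zn, N2_Zn, N2_Cd and N2, against 2362, 3756, 3753 and 2838 in N0_Cd_Zn, N0_Zn, N0_Cd and N0. AA1205560 had 1836, 1899, 2917 and 1548 in the N2 libraries in the same order, against 1704, 2426, 2443 and 1788 in the N0 libraries. At both supplies the Cd library lay above the library without metal for each of this pair. TRIAE_CS42_4AL_TGACv1_290058_AA0981010 on 4AL, rank 5, had 1932, 1531, 1539 and 1329.8 in the N2 libraries in the same order, against 1665, 2842, 2051 and 2182 in the N0 libraries. Its highest library was N0_Zn and its lowest N2.

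Of the next 5, 2 members on arm 4BS had the strongest differences. TRIAE_CS42_4BS_TGACv1_328451_AA1087970, the sixth, had 714, 502, 458 and 555 TMM-scaled CPM in N2_Cd_Zn, N2_Zn, N2_Cd and N2, against 2569, 4123, 2026 and 3259 in N0_Cd_Zn, N0_Zn, N0_Cd and N0, so that every raised library lay below every basal one. TRIAE_CS42_4BS_TGACv1_327881_AA1077600, the tenth, had 1158, 631, 461 and 378 in the N2 libraries in the same order, against 988, 3963, 1282 and 3236 in the N0 libraries, and here N2_Cd_Zn overlapped the basal range. The other 3 were highest in N0_Cd_Zn. TRIAE_CS42_5BL_TGACv1_407358_AA1356170 on 5BL reached 2545 there and was lowest in N2_Cd_Zn at 1044. TRIAE_CS42_5BS_TGACv1_423343_AA1374820 on 5BS reached 2395 there and was lowest in N2_Zn at 937, and TRIAE_CS42_5BL_TGACv1_408217_AA1362310 on 5BL reached 2113 and was lowest in N2_Cd_Zn at 866. Of the 10, 7 lay on chromosome group 5.

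**Figure D1:**
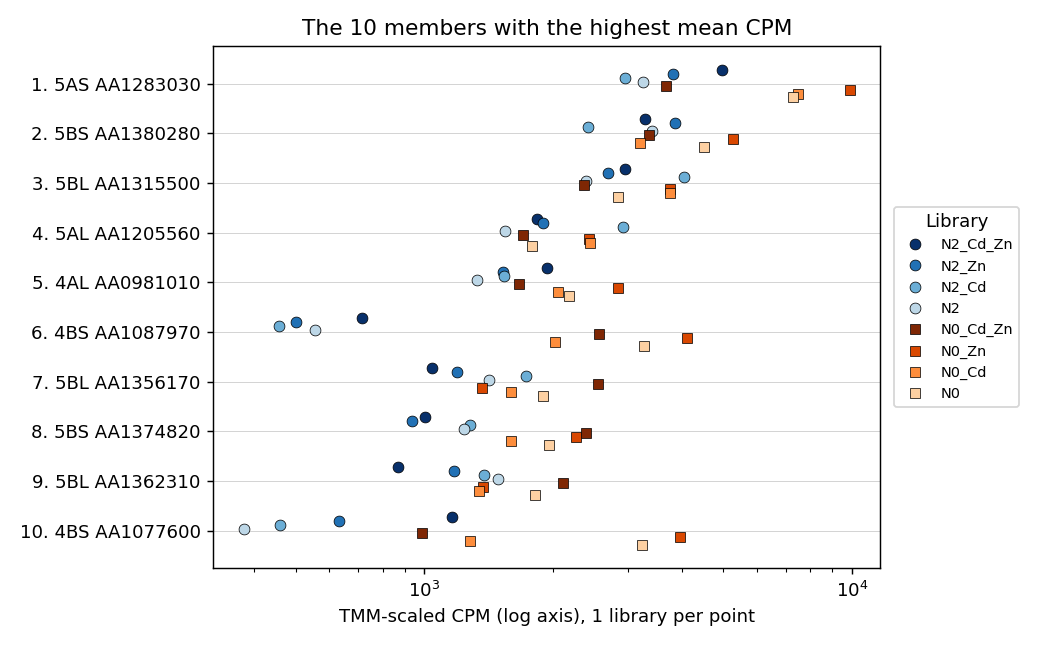
Level of the 10 leading members in each library, as TMM-scaled CPM on a log axis; each point is 1 library, circles are raised and squares basal Ca/K. The sixth gene has its 4 raised libraries between 458 and 714 and its 4 basal ones between 2026 and 4123, while ranks 3 and 4 vary by less than 2-fold.

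CPM counts reads and therefore favours long genes, so the order was also taken per length from the deposited FPKM (counts scaled to gene length and library total). Members had a median length of 1442 bp (range 546 to 4671), against 1711 bp for the 61813 detected A and B genes. On FPKM, 69 of the 100 remained among the 100 highest. AA1283030 led again with a mean of 6132 FPKM over 8 libraries, before AA1380280 with 3571. The third place went to TRIAE_CS42_1AS_TGACv1_019239_AA0063780 on 1AS, a gene model of only 546 bp with 1968 FPKM, which was nineteenth on CPM. AA0063780 had 2323, 1485, 488 and 949 TMM-scaled CPM in N2_Cd_Zn, N2_Zn, N2_Cd and N2, against 525, 1417, 944 and 443 in N0_Cd_Zn, N0_Zn, N0_Cd and N0, highest in N2_Cd_Zn and lowest in N0. Per length, AA0981010 followed with 1709 FPKM and AA1087970 with 1536. AA1205560, rank 4 on CPM with 3314 bp, had 621 FPKM. The members' mean FPKM ran from 113 to 6132 with a median of 508.

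The members divided evenly, with 50 on the A and 50 on the B subgenome, where the series has 35769 A genes and 38535 B genes. The A members held between 48.1% (N0_Cd_Zn) and 53.0% (N2_Cd_Zn) of the members' counts. Chromosome group 5 held 24 members and group 2 held 19, against 15.4% and 16.9% of the A and B genes. Group 3 held 6 (15.5% of A and B genes) and group 6 held 7 (12.5%). Arms 5AL and 5BL held 9 each (0.214% and 0.191% of the genes on the arm), 2AL held 8 (0.228%) and 1BL held 7 (0.1996%). The highest shares per arm were those of 5BS (0.237%) and 5AS (0.234%), with 3 members each. The members lay on 100 scaffolds, with 0 sharing a scaffold with another member.

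At the border of the rule, TRIAE_CS42_5AS_TGACv1_393047_AA1267630 (rank 99) had a mean of 461 CPM and TRIAE_CS42_2AL_TGACv1_093126_AA0272780 (rank 100) 455.1, while the next in rank, TRIAE_CS42_6AL_TGACv1_472182_AA1518680, had 454.7 and TRIAE_CS42_7BL_TGACv1_577866_AA1884930 after it 454.2. Without regard to codes, 92 of the 100 most abundant genes were members, beside 4 with a serial number only, 3 with the code U and 1 with a D code. The highest of these 8 was Novel05381 with a mean of 1799 CPM, which would have ranked sixth.

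The list of most abundant genes changed with treatment. When the 100 highest A and B genes were taken in each library by itself, 57 (N0_Cd_Zn) to 77 (N0_Cd) of them were members, and the 8 lists held 263 genes in all. Only 17 genes stood in all 8 lists, and all 17 were members. They included 8 of the 10 leading members, all but AA1087970 and AA1077600 on 4BS. The lists of N2_Cd and N2 shared 79 genes, and those of N2_Zn and N2_Cd_Zn 70. The lists of N2_Cd and N0_Zn shared 31 and those of N2_Zn and N0 32. At basal supply N0_Cd_Zn and N0_Zn shared 34, fewer than N0_Cd_Zn and N2 with 57.

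Some members kept nearly the same level in all libraries and others did not. The highest library of a member exceeded its lowest by a median of 3.18-fold, against 2.98-fold for the 900 A and B genes next in rank and 2.72-fold for 30729 genes with a mean of at least 5 CPM. The ratio was under 2 for 24 members (23.6% of the 900, 29.7% of the 30729) and 10 or more for 15 (18.8% and 16.3%). The most even member was TRIAE_CS42_2AS_TGACv1_112519_AA0339790 on 2AS, with 446, 402, 478 and 423 TMM-scaled CPM in N2_Cd_Zn, N2_Zn, N2_Cd and N2, against 557, 563, 516 and 531 in N0_Cd_Zn, N0_Zn, N0_Cd and N0. Its highest library lay 1.40-fold above its lowest. TRIAE_CS42_7AS_TGACv1_570668_AA1839220 on 7AS followed with 425 (N0_Cd_Zn) to 608 (N0_Zn), and TRIAE_CS42_2BS_TGACv1_146384_AA0464000 on 2BS with 404 (N0_Zn) to 598 (N2_Zn).

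The least even members owed their mean to few libraries. TRIAE_CS42_1BL_TGACv1_031356_AA0112250 on 1BL had 95.6, 73.7, 14.9 and 56.3 TMM-scaled CPM in N2_Cd_Zn, N2_Zn, N2_Cd and N2, against 377, 1889, 714 and 1346 in N0_Cd_Zn, N0_Zn, N0_Cd and N0, a 127-fold range. All raised libraries lay below all basal ones, and N0_Zn held 38.3% of its CPM summed over libraries. TRIAE_CS42_1BL_TGACv1_032476_AA0130290 on 1BL had 333, 48.9, 23.8 and 112 in the N2 libraries in the same order, against 372, 2071, 423 and 822 in the N0 libraries, a range of 87.0-fold, with 45.6% in N0_Zn. TRIAE_CS42_3B_TGACv1_237045_AA0832750 on 3B had 237, 191, 27.7 and 103 in the N2 libraries in the same order, against 407, 2181, 309 and 1092 in the N0 libraries, a range of 78.6-fold, with 44.5% in N0_Zn. TRIAE_CS42_1BL_TGACv1_031497_AA0115100 on 1BL held 44.1% of its summed CPM in N0_Zn. All 4 were highest in N0_Zn and lowest in N2_Cd or N2.

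N0_Zn and N0_Cd_Zn, although both had Zn at basal supply, were the most frequent peaks and pulled apart. N0_Zn was the highest library of 44 members (26.4% of 30729 genes with a mean of at least 5 CPM) and N0_Cd_Zn of 26 (16.6%). The next was N2_Cd with 11 (11.0%). On plain CPM the counts of N0_Zn and N0_Cd_Zn were 34 and 28, with no share of all genes taken. Of the 44 peaking in N0_Zn, 9 were lowest in N0_Cd_Zn and 18 in N2_Cd. Of the 26 peaking in N0_Cd_Zn, 12 were lowest in N0_Zn and 10 in N2_Cd_Zn. The members were chosen by mean CPM, so a gene high in 1 library can enter through it. Without N0_Zn in the choice 88 of the 100 members stayed, and 96 without N0_Cd_Zn. These counts therefore describe the members and were not tested.

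**Figure D2:**
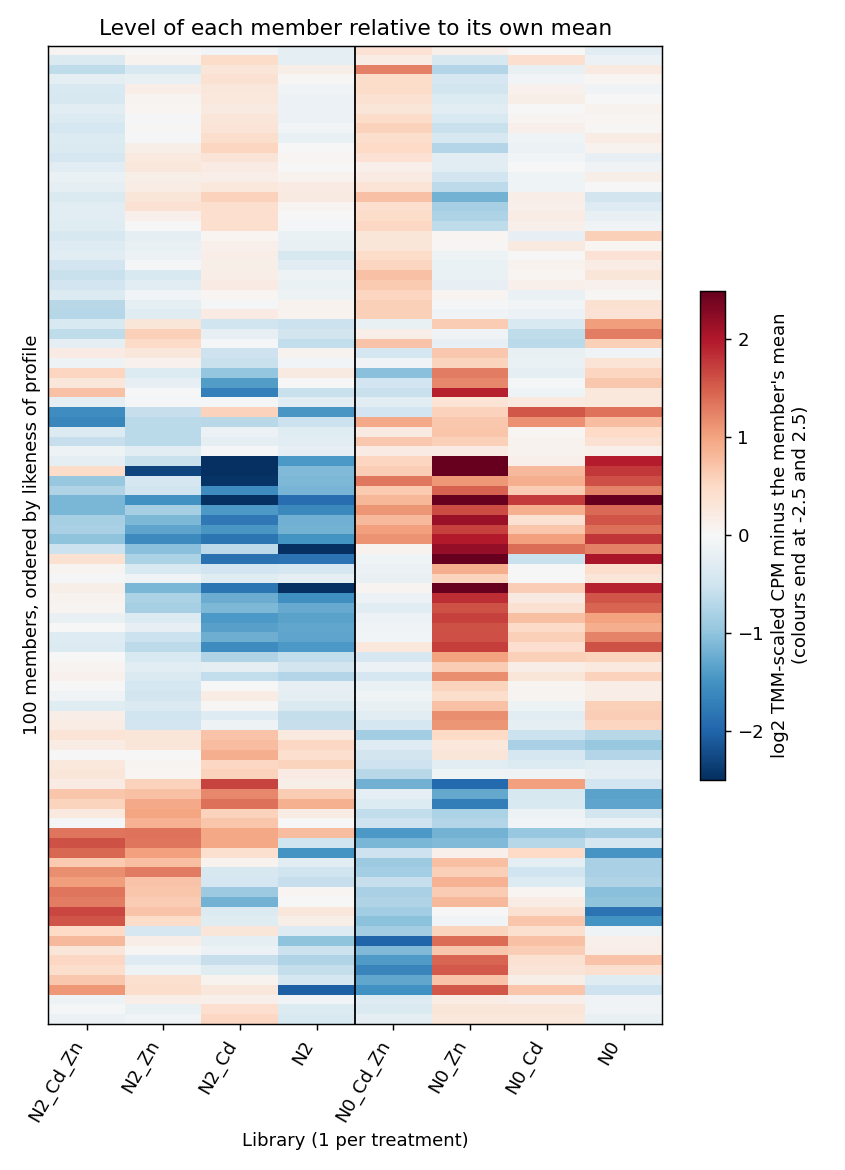
Each row is 1 of the 100 members and each column 1 library, with N2 (raised Ca/K) left of the line and N0 (basal) right of it; colour gives log2 TMM-scaled CPM minus the member's own mean over the 8 libraries. A block of members is red in the N0 libraries, most in N0_Zn, where 44 members had their highest level, and the top block is red in N0_Cd_Zn, where 26 had it. As members were chosen by mean CPM, a gene high in these libraries can enter through them.

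Members nearest in profile joined an A and a B gene of the same chromosome group more often than pairs of members in general. The likeness of 2 members was taken as Pearson's r of log2 TMM-scaled CPM over the 8 libraries, which share their depth and scaling with every gene, and is given as a description. Over all 4950 pairs of members the median r was 0.07. There were 30 pairs in which each was the other's nearest, and 14 of them (46.7%) joined an A and a B gene of the same chromosome group, as did 8.12% of all pairs. For 20 of the 50 A members (40.0%) the most alike B member was of the same group, against 16.1% of the 2500 combinations of an A with a B member. Whether these pairs are homoeologs is not known without their sequences, and whether they share reads was not tested.

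In the 14 pairs r ran from 0.89 to 1.00 with a median of 0.98, and the ratio of A to B level varied little, with a median SD of 0.13 on the log2 scale over libraries. All 30 pairs were picked as mutually nearest in r, so a high r follows from that choice. In the other 16 pairs the median r was 0.96 and the median SD 0.30. The most alike by r were TRIAE_CS42_4AL_TGACv1_289420_AA0970770 on 4AL and AA1087970 on 4BS (r = 0.998). Their log2 ratio nevertheless had an SD of 0.31 over libraries, the largest of the 14 pairs. AA0970770 had 437, 288, 247 and 311 TMM-scaled CPM in N2_Cd_Zn, N2_Zn, N2_Cd and N2, against 1900.1, 3430.2, 1769.7 and 3007 in N0_Cd_Zn, N0_Zn, N0_Cd and N0, and so lay low at raised supply like its partner. As background, chromosome 4A of wheat carries a pericentric inversion, by which part of its long arm corresponds to 4BS. TRIAE_CS42_5AL_TGACv1_375394_AA1220930 on 5AL (2721 bp) and AA1362310 on 5BL (2694 bp) differed by only 1.03-fold on average. AA1205560 and AA1315500, both among the 4 leading members, formed another pair, the A gene 1.50-fold below the B gene on average (SD of the log2 ratio 0.09, n = 8 libraries). The pairs thus recur among the leading members, with 6 of the first 10 in them.

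**Figure D3:**
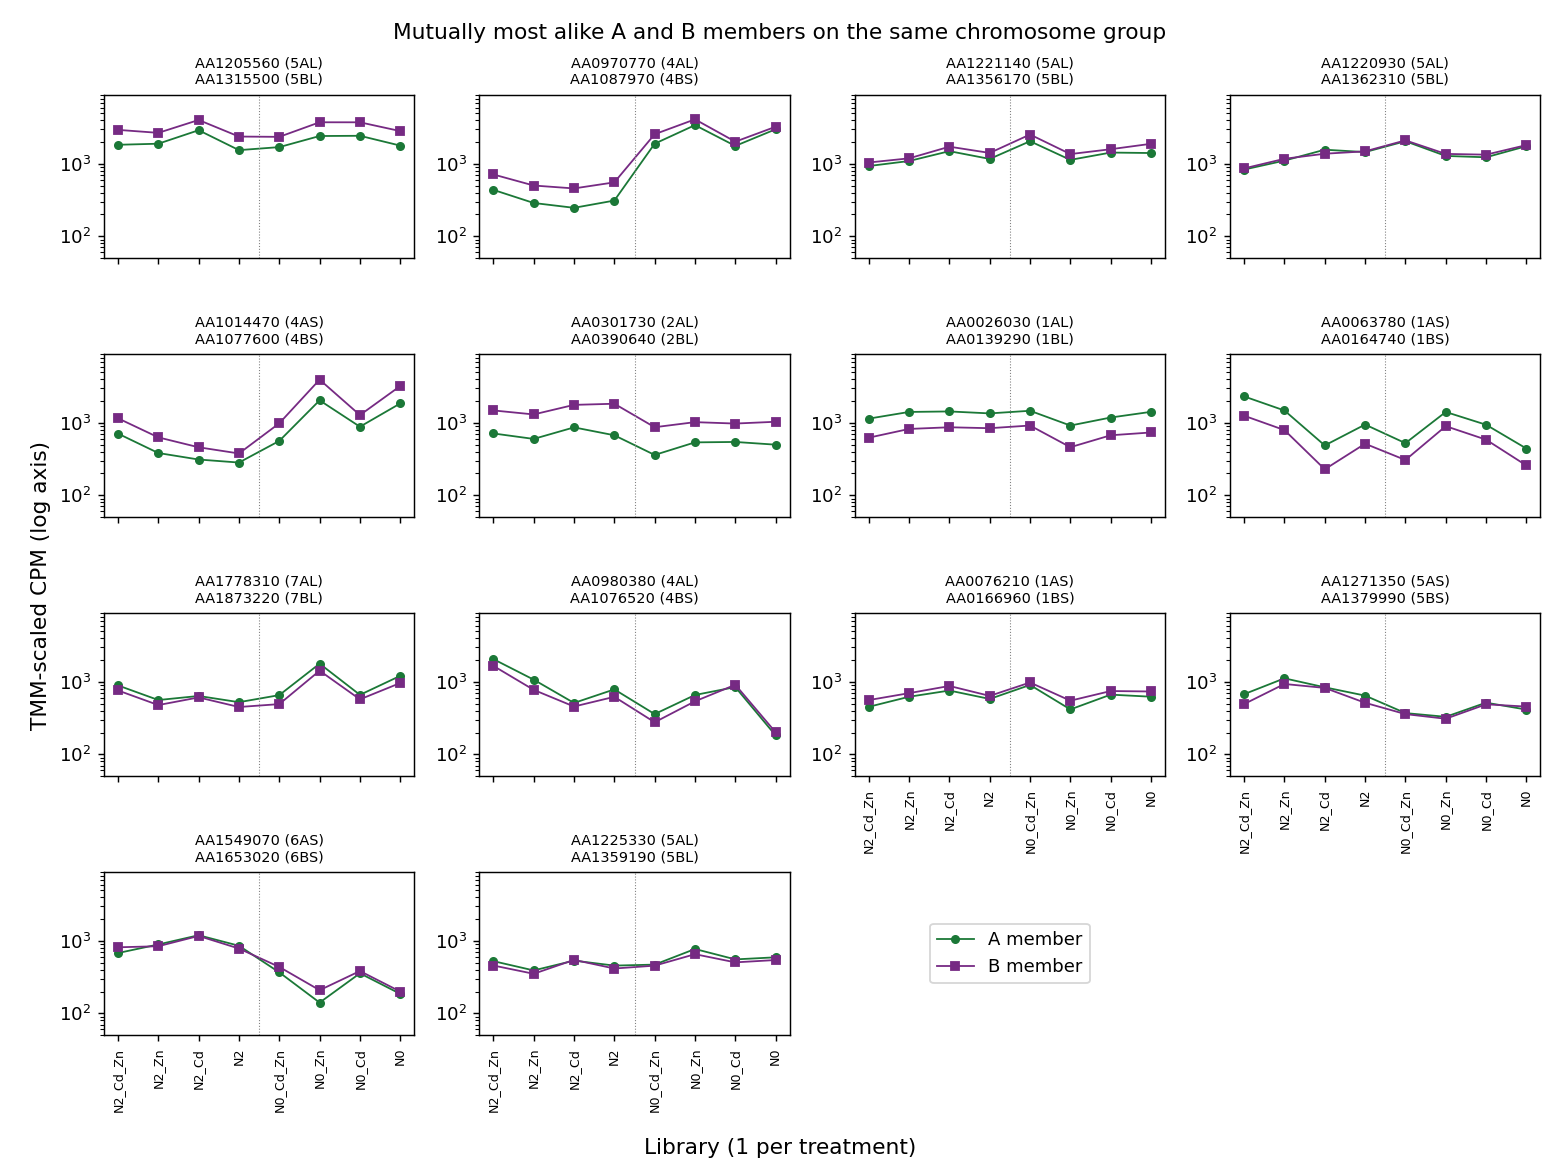
TMM-scaled CPM on a log axis in each library for the 14 pairs of mutually most alike A and B members of the same chromosome group; circles are the A and squares the B member, and the dotted line parts raised (N2, left) from basal (N0, right) Ca/K. The lines of most pairs run nearly parallel. In all 14 r lay between 0.89 and 1.00 over the 8 libraries, as the pairs were picked by r.

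Raised Ca/K supply went with lower levels of more members than higher ones, except under both metals. In N2 against N0, 30 members were 2-fold or more lower (15.8% of 33354 genes compared) and 8 higher (13.7%), with a median log2 ratio of -0.32, against -0.07 over all genes compared. In N2_Cd against N0_Cd, 23 were lower (11.0%) and 7 higher (10.8%). In N2_Zn against N0_Zn, 35 were lower (20.6%) and 9 higher (21.8%), with a median log2 ratio of -0.29 against -0.10 over all genes compared. In N2_Cd_Zn against N0_Cd_Zn, 18 were lower (18.4%) and 21 higher (19.9%), close to the background. On plain CPM, 25 members were lower and 11 higher in N2 against N0, and 32 lower and 13 higher in N2_Zn against N0_Zn. Counts under Cd alone and under both metals stayed the same. No share of all genes was taken on plain CPM. The 900 genes ranked next leaned the same way in N2 against N0, with 23.8% lower and 10.2% higher, and in N2_Cd against N0_Cd, with 15.6% lower and 7.11% higher. Under Zn they did not, with 23.2% lower and 26.4% higher. A member that is high in some libraries only can enter through them, so these shares describe the members and were not tested as a group.

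**Figure D4:**
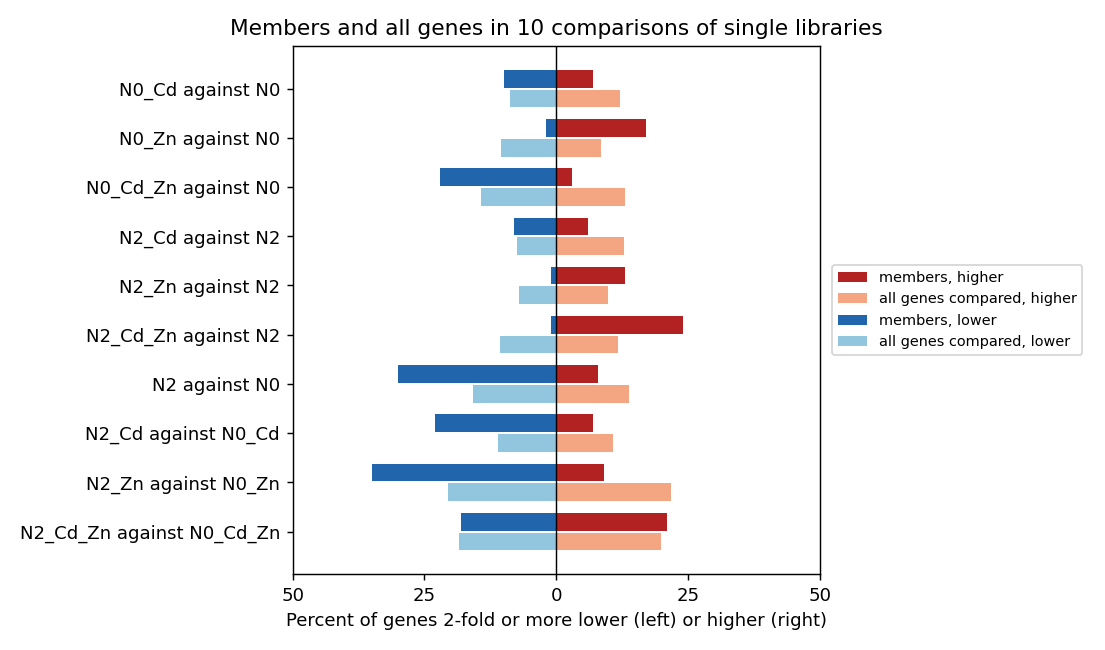
Share of genes 2-fold or more higher (right, red) or lower (left, blue) in the first-named library of each comparison, in percent; dark bars are the 100 members and light bars all genes that reach 5 CPM in either library. More members lie 2-fold lower than 2-fold higher in 3 of the 4 comparisons of raised with basal Ca/K, with 30, 23 and 35 lower, and in N2_Cd_Zn against N2 24 lie higher and 1 lower.

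In 17 members all 4 raised libraries lay below all 4 basal ones (10.3% of 30729 genes with a mean of at least 5 CPM), and in 7 all lay above (6.70%). A difference of 2-fold or more in each of the 4 matched pairs was lower in 8 members (1.48%) and higher in 1 (2.05%). Among the 900 genes next in rank, 16.2% lay below without overlap and 8.44% above, 2.89% were 2-fold lower in every pair and 3.67% higher. Without N0_Cd_Zn, 28 members lay below (18.1%) and 7 above (10.4%). Without the pair that holds it, 20 were 2-fold or more lower (6.33%) and 3 higher (4.32%). Dropping a library or a pair can only keep or raise these counts.

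The lower member with the smallest p in edgeR's quasi-likelihood test was TRIAE_CS42_2BL_TGACv1_130682_AA0416020 on 2BL, with 385, 481, 314 and 278 TMM-scaled CPM in N2_Cd_Zn, N2_Zn, N2_Cd and N2, against 1822, 2631, 1578 and 2270.2 in N0_Cd_Zn, N0_Zn, N0_Cd and N0. All 4 raised libraries lay at 481 or below and all 4 basal ones at 1578 or above. Its log2 fold change for Ca/K over the 8 libraries was -2.51 (SE 0.27), with an adjusted p of 0.057 in edgeR. AA0970770 came next with -2.93 (SE 0.35) and an adjusted p of 0.0667 in edgeR. Neither passed 0.05 in edgeR. Both passed with DESeq2, limma, and edgeR without N0_Cd_Zn (adjusted p = 0.0214 and 0.0215 in edgeR). Leaving out any other single library raised the adjusted p in edgeR. It then lay between 0.103 and 0.295 for AA0416020 and between 0.103 and 0.304 for AA0970770.

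The higher member with the smallest p was TRIAE_CS42_6BL_TGACv1_499732_AA1590270 on 6BL, with 1551, 1568, 1193 and 1049 TMM-scaled CPM in N2_Cd_Zn, N2_Zn, N2_Cd and N2, against 227, 269, 316 and 333 in N0_Cd_Zn, N0_Zn, N0_Cd and N0. All 4 raised libraries lay at 1049 or above and all 4 basal ones at 333 or below. It was the member 2-fold or more higher in every matched pair, with a log2 fold change of 2.22 (SE 0.29) and an adjusted p of 0.0737 in edgeR. TRIAE_CS42_6BS_TGACv1_513961_AA1653020 on 6BS, with 819, 847, 1175 and 787 in the N2 libraries in the same order, against 438, 209, 385 and 200.2 in the N0 libraries, had 1.64 (SE 0.28, adjusted p = 0.104 in edgeR), and its nearest in profile was TRIAE_CS42_6AS_TGACv1_485624_AA1549070 on 6AS. AA1549070 had 682, 896, 1203 and 859 in the N2 libraries in the same order, against 369, 141, 358 and 186 in the N0 libraries, likewise without overlap.

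The largest single differences with supply were on the lower side. AA0115100 had 41.1 TMM-scaled CPM in N2, against 1022 in N0 (24.8-fold lower, 95% counting interval 23.4 to 26.4). AA0112250 had 14.9 TMM-scaled CPM in N2_Cd, against 714 in N0_Cd (47.7-fold lower, 95% counting interval 43.0 to 53.7). AA0130290 had 48.9 TMM-scaled CPM in N2_Zn, against 2071 in N0_Zn (42.2-fold lower, 95% counting interval 39.8 to 45.0). These are the least even members named above. The other side was smaller, with AA1549070 at 896 TMM-scaled CPM in N2_Zn, against 141 in N0_Zn (6.36-fold higher, 95% counting interval 6.12 to 6.61). Under both metals TRIAE_CS42_1BS_TGACv1_049635_AA0158560 on 1BS had 1192 TMM-scaled CPM in N2_Cd_Zn, against 168 in N0_Cd_Zn (7.07-fold higher, 95% counting interval 6.84 to 7.32), and TRIAE_CS42_4AL_TGACv1_289601_AA0973830 on 4AL 209 TMM-scaled CPM in N2_Cd_Zn, against 1243 in N0_Cd_Zn (5.95-fold lower, 95% counting interval 5.77 to 6.15).

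Over the 8 libraries, edgeR's quasi-likelihood test of the additive model called 0 of the 100 members for Ca/K at an adjusted p under 0.05 (0.00155% of 64580 genes tested). At an unadjusted p under 0.05 edgeR had 29 members, 21 lower and 8 higher (16.4% of all genes; 8.45% lower and 7.92% higher). DESeq2 called 28, of them 21 lower and 7 higher (10.5% of all genes, 5.37% lower and 5.10% higher). With limma on log2(FPKM + 1) 7 were called, 6 lower and 1 higher (0.670% of all genes, 146 genes lower and 287 higher). With the metal combination as a block, a fit added after seeing the data, edgeR called 0 members. At an unadjusted p under 0.05 it had 26, 20 lower and 6 higher (16.2% of all genes, 5032 genes lower and 5448 higher). The call in edgeR turned on 1 library. Without N0_Cd_Zn it called 20 members, 17 lower and 3 higher (5.65% of 63635 genes). Among all genes this fit also called more lower (2471) than higher (1123). Of the 20 members, 19 were among DESeq2's 28. The spread in this model contains interactions as well as noise, and its p-values measure how a difference recurs over libraries of other treatments.

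Cd without Zn went with few large differences among the members. In N2_Cd against N2, 6 members were 2-fold or more higher (12.8%) and 8 lower (7.41%), and in N0_Cd against N0, 7 were higher (12.1%) and 10 lower (8.73%). Both shares on the higher side lay under the background. Of the 900 genes next in rank, 10.9% were higher and 3.22% lower in N2_Cd, and 9.22% higher and 7.78% lower in N0_Cd. At both supplies together, with no library shared, 3 members were higher (6.48% of 36791 genes) and 1 lower (4.35%). TRIAE_CS42_2AL_TGACv1_093618_AA0283720 on 2AL had 786 TMM-scaled CPM in N2_Cd, against 157 in N2 (5.02-fold higher, 95% counting interval 4.86 to 5.19). AA0130290 had 23.8 TMM-scaled CPM in N2_Cd, against 112 in N2 (4.70-fold lower, 95% counting interval 4.29 to 5.18). At basal supply TRIAE_CS42_4AL_TGACv1_290009_AA0980380 on 4AL had 849.8 TMM-scaled CPM in N0_Cd, against 182 in N0 (4.66-fold higher, 95% counting interval 4.51 to 4.82), and TRIAE_CS42_1AL_TGACv1_000751_AA0018370 on 1AL 252 TMM-scaled CPM in N0_Cd, against 1527 in N0 (6.06-fold lower, 95% counting interval 5.90 to 6.23). AA0980380 and TRIAE_CS42_4BS_TGACv1_327858_AA1076520 on 4BS, which follows it with 914 TMM-scaled CPM in N0_Cd, against 201 in N0 (4.54-fold higher, 95% counting interval 4.40 to 4.68), are 1 of the 14 A and B pairs. AA0980380 had 2069, 1076, 513 and 789.7 TMM-scaled CPM in N2_Cd_Zn, N2_Zn, N2_Cd and N2, against 359.8, 661, 849.8 and 182 in N0_Cd_Zn, N0_Zn, N0_Cd and N0, so N0 was the lowest and N2_Cd_Zn the highest of all 8.

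With Zn and no Cd, more members were 2-fold higher than 2-fold lower. In N2_Zn against N2, 13 were 2-fold or more higher (9.77%) and 1 lower (7.10%). In N0_Zn against N0, 17 were higher (8.42%) and 2 lower (10.4%). On plain CPM the higher ones numbered 7 at raised and 14 at basal supply. The 900 genes next in rank leaned the same way at raised supply, with 16.1% higher and 2.22% lower. At basal supply they had 9.33% higher and 7% lower. In both comparisons 6 members were higher (2.42% of 36361 genes) and 0 lower (4.14%). A gene high in N0_Zn can enter through that library, and 88 of the 100 members stayed without N0_Zn in the choice. The shares therefore describe the members and were not tested as a group.

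TRIAE_CS42_7AL_TGACv1_557592_AA1783720 on 7AL led at raised supply, with 1125 TMM-scaled CPM in N2_Zn, against 197 in N2 (5.71-fold higher, 95% counting interval 5.55 to 5.88). AA0283720 led at basal supply, with 1875 TMM-scaled CPM in N0_Zn, against 450.4 in N0 (4.16-fold higher, 95% counting interval 4.07 to 4.25), and was second at raised supply, with 875 TMM-scaled CPM in N2_Zn, against 157 in N2 (5.58-fold higher, 95% counting interval 5.40 to 5.77). Its level over all libraries was 1363, 875, 786 and 157 TMM-scaled CPM in N2_Cd_Zn, N2_Zn, N2_Cd and N2, against 226, 1875, 1037 and 450.4 in N0_Cd_Zn, N0_Zn, N0_Cd and N0. It was above the library without metal in all metal libraries but N0_Cd_Zn. On the lower side, TRIAE_CS42_2AL_TGACv1_096750_AA0321140 on 2AL had 102.5 TMM-scaled CPM in N0_Zn, against 280.1 in N0 (2.73-fold lower, 95% counting interval 2.60 to 2.87), and AA0130290 had 48.9 TMM-scaled CPM in N2_Zn, against 112 in N2 (2.29-fold lower, 95% counting interval 2.14 to 2.46).

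With both metals, more members were 2-fold higher than lower at raised supply, and more were lower than higher at basal supply. In N2_Cd_Zn against N2, 24 members were 2-fold or more higher (11.7% of 32942 genes) and 1 lower (10.7%). In N0_Cd_Zn against N0, 3 were higher (13.0%) and 22 lower (14.2%), a split of 6 and 19 on plain CPM. The 900 genes next in rank leaned the same way, with 17.3% higher and 3% lower at raised supply, and 6% higher and 22.1% lower at basal supply. The members' median log2 ratio was 0.17 at raised and -0.27 at basal supply, against 0.05 and -0.09 over all genes compared. These 2 comparisons share no library. A member high in 1 of the libraries can enter through it, so the shares describe the members and were not tested as a group. The ratio had the same sign in only 19 members (27.3% of 36676 genes), whereas Zn alone gave the same sign in 56 (58.1%) and Cd alone in 58 (67.2%). In 13 members the ratio was 2-fold or more higher at raised and 2-fold or more lower at basal supply (5.70%), and in 0 the reverse (6.37%). Of the 900 genes next in rank, 10.1% turned in the first way and 1.11% in the reverse, and 23.1% kept the sign. Cd alone gave 0 such members (0.541%) and 1 of the reverse (0.598%), and Zn alone 1 (2.07%) and 1 (0.523%). With both metals, 0 members were 2-fold higher at both supplies (0.840%) and 0 lower (0.943%).

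TRIAE_CS42_3AL_TGACv1_197291_AA0665720 on 3AL shows this turn, with 1451, 812, 681 and 598 TMM-scaled CPM in N2_Cd_Zn, N2_Zn, N2_Cd and N2, against 378, 2790.2, 1320.2 and 1652 in N0_Cd_Zn, N0_Zn, N0_Cd and N0. Under both metals it was the highest of the N2 libraries and the lowest of the N0 libraries. AA0283720 had 1363 TMM-scaled CPM in N2_Cd_Zn, against 157 in N2 (8.70-fold higher, 95% counting interval 8.43 to 8.98), the largest ratio of a member on that side, and AA1783720 followed with 1498 TMM-scaled CPM in N2_Cd_Zn, against 197 in N2 (7.60-fold higher, 95% counting interval 7.39 to 7.83). AA0973830 was the member on the lower side, with 209 TMM-scaled CPM in N2_Cd_Zn, against 444 in N2 (2.12-fold lower, 95% counting interval 2.05 to 2.20). At basal supply AA0018370 had 347 TMM-scaled CPM in N0_Cd_Zn, against 1527 in N0 (4.40-fold lower, 95% counting interval 4.30 to 4.51). Against it stood TRIAE_CS42_4BL_TGACv1_320880_AA1050780 on 4BL, with 719 TMM-scaled CPM in N0_Cd_Zn, against 316 in N0 (2.27-fold higher, 95% counting interval 2.21 to 2.34).

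No member passed the tests of Cd, Zn or Cd by Zn over all 8 libraries. For Cd, edgeR's quasi-likelihood test called 0 of 100 members (0% of 64580 genes) and had 0 at an unadjusted p under 0.05 (2.97% of all genes). DESeq2 (0.449% of all genes) and limma also called 0 members for Cd. For Zn, edgeR called 0 members (0% of all genes) and had 3 at an unadjusted p under 0.05 (1.97%), all of them higher (0.669%). DESeq2 (0.245% of all genes) and limma called 0 for Zn. Without N0_Cd_Zn, edgeR had 23 members for Zn at an unadjusted p under 0.05 (13.2% of all genes), 22 of them higher (5.78%), with 0 called. For the Cd by Zn interaction, edgeR called 0 members and had 0 at an unadjusted p under 0.05 (7.62% of all genes), and DESeq2 (2.31% of all genes) and limma called 0. Without N2_Cd_Zn, edgeR called 2 members for the interaction, both lower (5.39% of 64325 genes).

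Whether the metal differences depended on supply was tested with Cd by Ca/K and Zn by Ca/K terms, a model chosen after seeing the data that leaves 2 residual degrees of freedom. For both metals together, edgeR's quasi-likelihood test called 0 members (0% of 64580 genes) and had 6 at an unadjusted p under 0.05 (2.64%), all 6 with the higher value at raised supply. Among all genes at that p, 864 had the higher and 839 the lower value at raised supply. The members' median of this term was 0.56 on the log2 scale, against 0.08 over all genes tested. Without N0_Cd_Zn the members' median was 0.14, against 0.08 over all genes tested. That fit leaves fewer than 2 residual degrees of freedom, so its p-values are a weak check. In that fit 2 members had an unadjusted p under 0.05 in edgeR, as did 1710 of all 63635 genes, a similar share. DESeq2 called 2 for both metals, AA0018370 and AA0115100 (0.207% of all genes), and limma 0. For Cd by Ca/K, edgeR called 0 (0% of all genes) and had 6 at an unadjusted p under 0.05 (2.09%), DESeq2 called AA0018370 alone (0.132%) and limma 0. For Zn by Ca/K, edgeR called 0 (0% of all genes) and had 1 at an unadjusted p under 0.05 (1.07%), and DESeq2 (0.0681% of all genes) and limma called 0.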

How the data were processed

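Root RNA was sequenced from 8 treatments, 1 library each, on Illumina TruSeq libraries per the labels' protocols. The series' design names SMRT sequencing, and pooling of the 3 replicates is not described in them. Bowtie2 2.0.6 and TopHat2 2.0.12 are named in the submitters' processing notes. The authors deposited whole-number read counts per gene, and FPKM per gene, which follow from count, gene length and column total. The counting tool, strand setting and build: not given in the sources used here.

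From the counts, CPM chose the members. TMM-scaled CPM gave levels and, with a prior count of 2, the log2 ratios of 10 pairs of libraries, the background being genes that reach 5 CPM in either library. Comparisons that use the same N0 or N2 library share it. Counting intervals are exact at 95%. Ca/K, Cd and Zn were tested with edgeR 4.0.16 (quasi-likelihood, TMM, filterByExpr with a minimum count of 10, Benjamini-Hochberg adjustment over all 64580 genes; 4 residual degrees of freedom), and Cd by Zn with an added term (3 residual degrees of freedom). Chosen after seeing the data, Ca/K was refitted with the metal combination as a block, and Cd by Ca/K and Zn by Ca/K were tested together (2 residual degrees of freedom), both metals by Ca/K being their sum. Alternatives were limma 3.58.1 with FPKM on the log2 scale (pseudocount 1 or 0.1), DESeq2 1.42.0, other scalings and filters, and leaving out each library. The fits were also run on simulated counts with known Ca/K or Zn by Ca/K changes, and the outcome is not used here. No single library deviated in these simulations, so they do not bear on calls that turned on N0_Cd_Zn.

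Members and lists were chosen with earlier results of these data known. Identifiers printed are the 10 highest by CPM and 5 by FPKM, the 3 most and 3 least even, the 3 most concentrated in 1 library, ranks 99 to 102, and up to 2 extremes per direction in each pair. AA0416020, AA0970770 and AA1220930 were chosen after their values were seen, as were the counts of members whose Ca/K groups do not overlap or differ 2-fold in all 4 pairs. No gene names or sequences were used here.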

Additional observations from a re-analysis of the deposited data

Results flagged for a closer look

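Named members whose difference with a metal had opposite directions of 2-fold or more at the 2 Ca/K supplies, each from 1 library against 1 library, are given as the log2 ratio to the library without metal at raised supply, that at basal supply, and the raised minus the basal value. The adjusted p is that of edgeR's quasi-likelihood test of the metal by Ca/K terms, a model added after seeing the data with 2 residual degrees of freedom. With Zn alone, the values were 1.05 at raised and -1.38 at basal supply for TRIAE_CS42_4BL_TGACv1_320729_AA1047310 (difference 2.43, adjusted p = 1) and -1.20 at raised and 1.33 at basal supply for AA0130290 (difference -2.53, adjusted p = 1). With both metals they were 1.61 at raised and -1.71 at basal supply for AA1077600 (difference 3.33, adjusted p = 0.872), 1.28 at raised and -2.13 at basal supply for AA0665720 (difference 3.41, adjusted p = 0.872), 1.82 at raised and -2.13 at basal supply for AA0158560 (difference 3.94, adjusted p = 0.872) and 2.18 at raised and -1.17 at basal supply for TRIAE_CS42_2BL_TGACv1_130218_AA0406480 (difference 3.35, adjusted p = 0.872). Further values were 2.24 at raised and -2.14 at basal supply for AA0018370 (difference 4.37, adjusted p = 0.872), 1.20 at raised and -1.42 at basal supply for AA0832750 (difference 2.62, adjusted p = 0.872), 2.87 at raised and -1.85 at basal supply for AA0115100 (difference 4.71, adjusted p = 0.872) and 1.57 at raised and -1.14 at basal supply for AA0130290 (difference 2.71, adjusted p = 0.872). In each of these 8 members the ratio with both metals was positive at raised and negative at basal supply, and each ratio at basal supply rests on N0_Cd_Zn. None passed 0.05 in edgeR or limma, and DESeq2 called 2, AA0018370 (adjusted p = 0.0181) and AA0115100 (adjusted p = 0.018) for both metals, and none for Zn. The Zn term averages over libraries with and without Cd, and it was 0.60 (SE 1.08) for AA1047310 and 0.73 (SE 2.16) for AA0130290, the second opposite in sign to its ratio difference with Zn alone.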

How the results depend on the processing

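Replicates could not be paired because there is only 1 library per treatment. This leaves the metal combination as the block for Ca/K, with 0 members called and an adjusted p of 0.094 for AA0416020 in edgeR. The number of members called for Ca/K depended on the tool, with 0 in edgeR's quasi-likelihood test, 28 in DESeq2, 7 in limma on log2(FPKM + 1) and 7 on log2(FPKM + 0.1). Leaving out 1 library in turn gave 0 to 20 calls for Ca/K, the 20 without N0_Cd_Zn, and 0 to 2 for Cd by Zn, the 2 without N2_Cd_Zn. Chosen after seeing the data, leaving out N0_Cd_Zn gave 28 members in place of 17 with all raised libraries below the basal ones, 20 in place of 8 that were 2-fold lower in every Ca/K pair, and 3 in place of 1 that were higher. Leaving out a library can only keep or raise such counts. The shares of all genes rose too, from 10.3% to 18.1%, from 1.48% to 6.33% and from 2.05% to 4.32%. On plain CPM, 8 members in place of 14 differed 2-fold in N2_Zn against N2. TMM shifted N2 by -0.19 and N2_Zn by 0.02 on the log2 scale, so ratios of this pair are lower on plain CPM. Why the scalings differ was not tested. With N0_Cd_Zn against N0, leaving the members out of TMM gave 6 higher and 20 lower. For the metal by Ca/K terms DESeq2 called 2 (both metals), 1 (Cd) and 0 (Zn) where edgeR and limma called 0. Fits of these terms without 1 library leave fewer than 2 residual degrees of freedom, so their p-values are a weak check. Without 1 library in turn edgeR called 0 members for these terms. At an unadjusted p under 0.05 it had 0 to 19, 1 to 15 and 0 to 13 members. Both metals and Cd had most without N0, and Zn without N0_Zn. These maxima lay below the shares of all genes. Those were 15614 (both metals) and 13130 (Cd) of 63482 genes without N0, and 10616 (Zn) of 63640 without N0_Zn. The choice of members kept 69 of 100 on mean FPKM, 86 on median CPM, and 88 to 99 when 1 library was left out. For Zn, the 3 members at an unadjusted p under 0.05 in edgeR, all higher, became 2, both lower, without N2. Depth does not limit the members' levels, read at 323 counts or more, but 1 library per treatment limits every comparison.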

Other observations

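Among the 30 pairs of members that were each other's nearest in profile, 16 did not join an A and a B gene of the same chromosome group. The most alike of these, on 5AL and 6BL, had r = 0.993 over 8 libraries, close to the highest r of the same-group pairs (0.998). AA0112250 on 1BL, the least even member, was nearest to a gene on chromosome 3B (r = 0.98), yet the ratio between this pair had an SD of 1.36 on the log2 scale over libraries. AA0339790, the most even member, was nearest to AA1374820 on 5BS (r = 0.95), which had 3.08-fold its level on average.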
